A study of Caenorhabditis elegans with 2 samples.

Results

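Chromatin bound by NHR-86::GFP was compared between Caenorhabditis elegans exposed to the small molecule R24 and animals exposed to its solvent, and the C-type lectin and lysozyme genes among those assigned to the receptor are described here. These were the rows of the deposited gene table whose name starts with clec- or lys-, which gave 3 genes of 189: clec-174, clec-72 and lys-2. The lectin genes were followed through the 4 peaks that lie around them on chromosome IV, of 220 peaks in all, and for lys-2 the peak list was searched around the gene. The genes and peaks were thus selected on the R24 over DMSO signal itself, so the enrichment at them is given as a description and no test was applied to it.

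Both groups were whole animals of the strain VL648, unc-119(ed3); wwIs22, in which an integrated transgene carries the nhr-86 promoter and reading frame fused to GFP together with unc-119(+). Per the labels, worms labelled as L4 spent a night on plates that held either R24 at 70 µM or only its solvent, DMSO, at 1%. The treatment text of the labels names wild-type worms and worms without functional nhr-86 but not VL648, and the strain of these libraries is taken from their genotype labels. One antibody against GFP was used for both immunoprecipitations. The transgene adds to the genomic copy of nhr-86, and the whole animal was lysed, so the values do not show in which tissue the DNA was bound. There was 1 library per group, with 879943 tags for R24 and 2047658 for DMSO, so no difference has a replicate check and no p-value across samples exists. Neither an input library nor a library of untagged animals was used here.

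Nuclear hormone receptors are transcription factors that can change activity when a small lipophilic molecule binds them, and NHR-86 belongs to the family related to vertebrate HNF4, which has expanded in nematodes. C-type lectins share a fold that in many animals binds sugars. The worm genome holds a large clec family, many of whose products are predicted to be secreted and whose transcripts often change during infection. Lysozymes cut the peptidoglycan of bacterial cell walls. The lys genes of the worm resemble lysozymes of amoebae, whereas the ilys genes encode the invertebrate type.

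The lectin locus held 4 separate peaks in a row, all with more tags in R24 than in DMSO scaled to the same depth. They lay between positions 3941565 and 3948476 of chromosome IV (build ce10), a span of 6912 bp of which 1718 bp (24.9%) were inside peaks. The first peak was joined to clec-174 and the last to clec-72, while the 2 inner peaks were joined to no gene. No other group of peaks in the list, with neighbours under 10 kb apart, held as many: 5 groups had 3 peaks, 17 had 2 and 167 peaks stood alone. The 4 peaks made up 10.8% of the 37 peaks on chromosome IV.

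The peak at clec-174 (IV, 3941565 to 3942264) was the strongest of the cluster. It was 700 bp long, and at its summit, position 3941959, 26 R24 tags overlapped (exact Poisson 95% interval 16.98 to 38.1). The local DMSO background, scaled to the depth of the R24 library, was 2.67 tags. This gave a fold enrichment of 7.35, which the authors' peak caller MACS computes as pileup plus 1 over background plus 1, with a −log10 q of 13.4. Taking the interval of the pileup over a fixed background, the fold ran from 4.90 to 10.6, without allowance for the selection of the peak.

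The first inner peak (IV, 3944475 to 3944779) was 305 bp long and had 19 R24 tags at position 3944602 (interval 11.4 to 29.7) over a background of 2.29. Its fold was 6.08 (3.78 to 9.32) and its −log10 q was 8.20. The second inner peak (IV, 3947023 to 3947331) was close to it in every measure. It was 309 bp long and had 18 tags at position 3947186 (10.7 to 28.4) over a background of 2.16, with a fold of 6.01 (3.69 to 9.31) and a −log10 q of 7.71.

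The peak at clec-72 (IV, 3948073 to 3948476) was the weakest. It was 404 bp long and held 14 tags at position 3948322 (7.65 to 23.5) over a background of 2.00. The fold was 5.00 (2.89 to 8.17) and the −log10 q 4.86. Pileup, background, fold and −log10 q thus each fell in the same order along the chromosome, from clec-174 to clec-72. The counts were too few to separate the peaks. The pileup at clec-174 was 1.86 times that at clec-72 (exact conditional 95% interval 0.935 to 3.85), the widest contrast of the 6 pairs, and all 6 intervals included 1. With each pileup set over its own background, the same ratio was 1.39 (0.699 to 2.88). These intervals cover the counting error of the pileups only, with each background taken as fixed, and each pileup is the highest value of its peak.

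**Figure D1:**
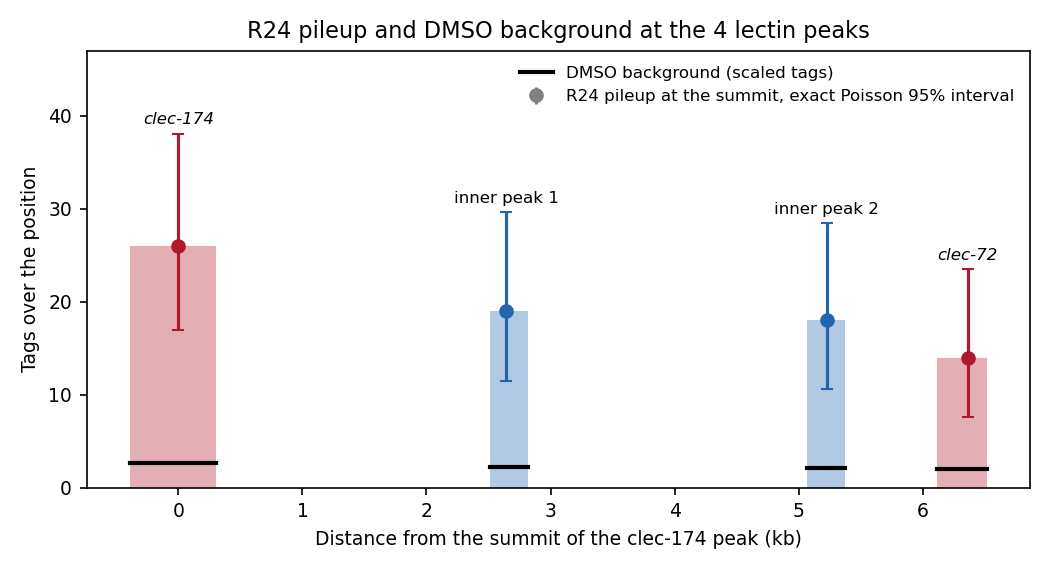
R24 pileup at the 4 lectin peaks (y axis, tags over the position) against the distance from the summit of the clec-174 peak (x axis, kb). Shaded bars span each peak, points with bars are the summit pileup with its exact Poisson 95% interval, and black lines are the scaled DMSO background. Pileups of 26, 19, 18 and 14 tags stand over backgrounds of 2.00 to 2.67, and the 4 intervals overlap.

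Spacing along the cluster was uneven. From clec-174 to the first inner peak the gap was 2210 bp, and from there to the second inner peak it was 2243 bp. Only 741 bp separated the second inner peak from the peak at clec-72. Summits were 2643, 2584 and 1136 bp apart in the same order, each more than the fragment length of 296 bp that MACS used, so no tag was counted at more than 1 summit. The summit lay 394 bp from the start and 305 bp from the end of the clec-174 peak. In the clec-72 peak these distances were 249 and 154 bp, and in the inner peaks 127 and 177 bp, then 163 and 145 bp.

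Inner peaks were shorter than outer peaks, and their levels could not be told apart from those of the outer peaks by counting error. The mean fold was 6.04 for the inner and 6.18 for the outer peaks, a difference of -0.14. The outer pair held both the highest and the lowest fold of the cluster, and both inner peaks fell between them. Summed pileups were 37 tags for the inner and 40 for the outer pair, a ratio of 0.925 (exact conditional 95% interval 0.575 to 1.48). The mean background was 2.23 inside and 2.33 outside. Mean length was 307 bp for the inner and 552 bp for the outer peaks. The inner peaks were near the shortest length in the list, 296 bp, and ranked 195 and 188 of 220 by length, while the clec-174 peak ranked 22 and the clec-72 peak 85. With 2 peaks of each kind in 1 pair of libraries, no test of these differences was possible.

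The DMSO side of the comparison could be read in tags. MACS takes as its background the highest tag density among a window of the fragment length, one of 1 kb and one of 10 kb around each position. The backgrounds recovered from the deposited values corresponded to whole numbers of DMSO tags at all 220 peaks (tolerance at most 0.00126 tags). At clec-174 the background equalled 21 DMSO tags in 1 kb, and at the inner peaks it equalled 18 and 17 tags in 1 kb. At clec-72 it equalled 157 tags in 10 kb, or 15.7 per kb. A 10 kb count that is a multiple of 10 would read the same as the 1 kb counts, with the density unchanged.

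Because MACS used the highest window, these backgrounds also limit what the DMSO library held at the summits themselves. In the 296 bp around the summit there were at most 6 DMSO tags at clec-174, 5 at each inner peak and 4 at clec-72, in a library 2.33 times as deep as that of R24. Scaled to R24, this is at most 2.58, 2.15, 2.15 and 1.72 tags. The observed tag ratio at the summit was therefore at least 10.1 at clec-174, 8.84 and 8.38 at the inner peaks and 8.14 at clec-72. Against the local DMSO density the R24 rate without a pseudocount was 9.73 times as high at clec-174 (exact conditional 95% interval, counting error of both libraries, 5.27 to 18.2). The corresponding ratios were 8.30 (4.12 to 16.8) and 8.32 (4.05 to 17.2) at the inner peaks and 7.01 (3.75 to 12.1) at clec-72. Without the pseudocount clec-174 was again the highest and clec-72 the lowest, the order of the inner peaks was turned by a difference far inside their intervals, and all 4 intervals overlapped. The peaks were called on this same contrast, and each pileup is the highest value of its peak. These ratios and intervals make no allowance for that selection, nor for the choice of the highest DMSO window, and are no test of enrichment. The intervals at clec-174 and the inner peaks take the DMSO count as that of 1 kb. A 10 kb count of the same density would change their widths.

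Within the whole list the lectin peaks stood high by fold, low by background and mostly low by pileup. The median fold of the 4 was 6.04, against 3.90 for all peaks. Their median pileup, 18.5 tags, was below the 23 of all peaks, with 3 of the 4 under that median. Their median background was 2.23 tags, against 5.16. All 4 backgrounds were among the 19 lowest of 220, and only 3 peaks in the list had a lower one than clec-72. By fold, clec-174 ranked 7, the inner peaks 15 and 16 and clec-72 38. By −log10 q they ranked 13, 46, 52 and 128, and by pileup 81, 162, 173 and 207, so that clec-72 was below the middle of the list by both. Each of the 4 had a fold of at least 5, as had 38 peaks of 220 (17.3%), with clec-72 the last of those 38. Since the peaks were chosen with this signal known, nothing is read from that count.

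The fold also depended on the lowest background that was allowed. The authors' run set the effective genome size to 2.7 Gb, the MACS setting for human, which allows a background as low as 0.0965 tags. With the 90 Mb setting for worm the lowest background is 2.89 tags, above the value at each lectin peak. The folds then became 6.93 at clec-174, 5.14 and 4.88 at the inner peaks and 3.85 at clec-72, so that 2 of the 4 had a fold of at least 5, as had 34 of all 220 peaks. The 90 Mb setting implies a mean of 22.8 DMSO tags per kb, and the 4 loci held 15.7 to 21. The order of the peaks was the same in both settings.

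**Figure D2:**
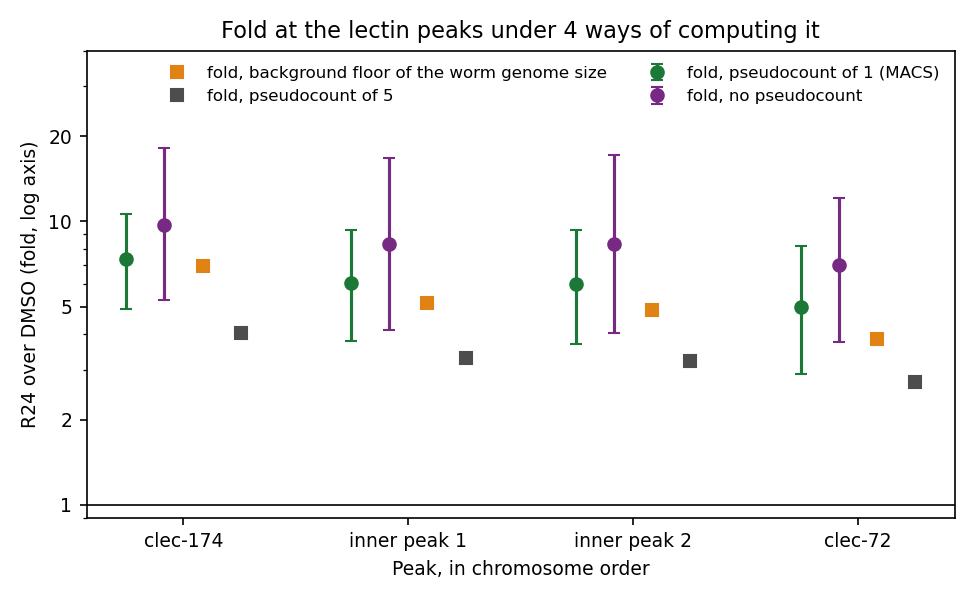
R24 over DMSO (y axis, fold, log scale) at each lectin peak, in chromosome order, computed in 4 ways. Bars on the deposited fold (green) are exact Poisson 95% intervals of the pileup over a fixed background, bars on the fold without a pseudocount (purple) cover both libraries, and squares carry no interval. The highest values are those without a pseudocount, 7.01 to 9.73, and the lowest those with a pseudocount of 5, 2.72 to 4.04.

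The lectin genes of this locus stand in a long tandem array. RefSeq gene order (assembly WBcel235) was used for names and order only, since the peaks are in ce10. In this order 14 clec genes, 2 of them pseudogenes, lay in a run of 21 genes from clec-67 to clec-78. The run was extended as long as no more than 3 other genes separated neighbouring clec genes, so that limit was set by the rule. clec-174 had 5 clec genes of the run before it and clec-72 had 7 after it. Of the 14, clec-174 and clec-72 were in the gene table, and the array was traced outward from these 2. Few genes are listed anywhere (182 of 46926 annotated genes, 0.388%), so unlisted neighbours carry no further reading. Between them lay Y46C8AL.11, a protein-coding gene, and 21ur-13241, a piRNA gene, neither of which was listed. Immediately before clec-174 came clec-71, clec-70 and the pseudogene clec-69. After clec-72 came the pseudogene Y46C8AL.12, clec-73 and clec-74, and none of these 6 was listed. Whether the inner peaks lie in, before or after clec-72 was not determined, because no annotation in ce10 was used. Reads that fit several places were removed by the authors through a filter on mapping quality, and similar gene copies can lose reads in this way. How far that touched the lectin genes was not tested.

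Outside the cluster, the next peak on either side was joined to a gene. How far apart peaks usually lie was not computed, so the distances are given without a comparison. The nearest peak before the cluster, 318 kb away, was joined to unc-17, the vesicular acetylcholine transporter gene (IV, 3622988 to 3623336), with a fold of 3.20 from 38 R24 tags over a background of 11.2. The nearest peak after it, 75.7 kb away, was joined to hlh-30, the worm counterpart of the transcription factor TFEB (IV, 4024145 to 4024496), with a fold of 3.09 from 22 tags over 6.45. Both neighbours had lower folds than any lectin peak, and both took their background from the 296 bp window, with 26 and 15 DMSO tags.

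The lectin cluster was set beside the other 5 groups of at least 3 peaks. Its folds, 5.00 to 7.35, were higher throughout than those of the groups at Y52B11A.3 (3.81 to 4.29), Y87G2A.2 (3.51 to 4.75) and lipl-5 with ZK6.6 (3.70 to 3.94), of which lipl-5 belongs to a family of lipases. They overlapped with those of the group of ugt-67, ugt-14 and ugt-13, UDP-glycosyltransferase genes (3.32 to 6.12), and with those around the infection response gene irg-5 (3.26 to 7.01). The background was lower at all 4 lectin peaks, at most 2.67, than at any peak around irg-5, where it was 4.71 to 4.83. In the ugt group it was 2.43 to 4.73. Pileups of 14 to 26 tags at the lectin peaks compared with 18 to 24 in the ugt group and 18 to 39 around irg-5. Groups were chosen by position, and their differences were not tested.

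**Figure D3:**
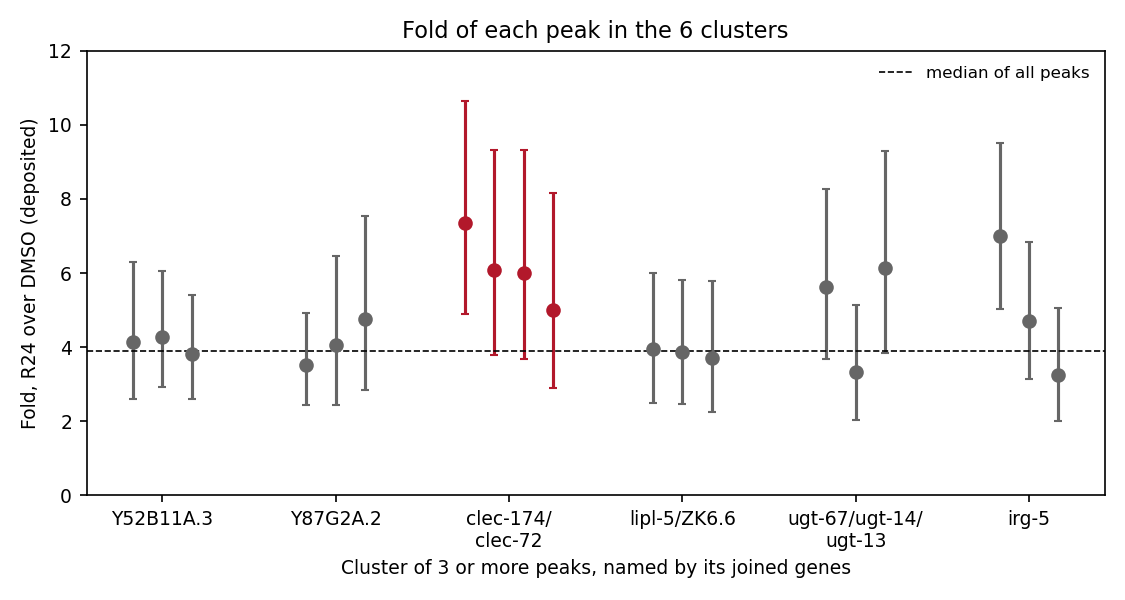
Deposited fold (y axis, R24 over DMSO) of each peak in the 6 groups of 3 or more peaks under 10 kb apart (x axis, named by joined genes, peaks in chromosome order). Bars are exact Poisson 95% intervals of the pileup over a fixed background and the dashed line is the median of all peaks, 3.90. The lectin peaks (red) lie above that line at 5.00 to 7.35, with intervals that overlap those of the other groups.

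For each lectin peak the most similar of the 146 peaks joined to a gene were sought by distance in log2 pileup and log2 background, in this 1 pair of libraries. The clec-174 peak was nearest to those of pad-1 (distance 0.182), cyp-35A1 (0.293), a cytochrome P450 gene, and srr-4 (0.309). The first inner peak was nearest to ugt-13 (0.113), nipa-1 (0.322) and pad-1 (0.330). The second was nearest to ugt-13 (0.227), nipa-1 (0.252) and hpo-13 (0.263). At clec-72 the nearest were hpo-13 (0.145), Y48B6A.13 (0.235) and R148.3 (0.250).

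lys-2 was the 1 lysozyme gene listed, and no peak was placed at it. Its value in the gene table matched no fold and no −log10 q of the peak list, nor the decimals of one, as held for 23 of 189 genes (12.2%). By contrast the values of clec-174 and clec-72 each matched 1 peak of 220, clec-174 through the fold and clec-72 through the −log10 q. In gene order lys-2 stands between lys-1 and lys-3, of which neither was listed. Nor were B0024.3, B0024.15, linc-38 and Y22F5A.9, the other genes up to 3 places away.

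The nearest genes with a joined peak on either side of lys-2 were srd-49, a chemoreceptor gene, and T28B11.5. Their peaks lie at V, 10096194 to 10096563, with a fold of 3.14 from 21 tags, and at V, 10726662 to 10727048, with a fold of 3.90 from 18 tags. Between these peaks, which are 630 kb apart, 295 genes are annotated. srd-49 is 84 genes before lys-2 and T28B11.5 210 genes after it, not counting the genes themselves. The list held 1 peak in this stretch, at V, 10711158 to 10711455, with 15 tags (8.40 to 24.7) over a background of 4.30, a fold of 3.02 and a −log10 q of 2.02. It lay 15.2 kb from the T28B11.5 peak and 615 kb from the srd-49 peak, and by fold it ranked 203 of 220. Thus the listing of lys-2 rests on no peak that could be traced in these data. The weakest lectin peak, at clec-72, had a −log10 q of 4.86, and the lowest in the whole list was 1.77.

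Related families of host defence genes were looked up in the same table. Of the 264 annotated clec genes 2 were listed (0.758%) and of 10 lys genes 1, where 182 of all 46926 annotated genes (0.388%) were. The annotated genes include non-coding genes and pseudogenes, whereas 239 of the clec genes and all 10 lys genes are protein-coding. Of the protein-coding clec genes 0.837% were listed. The share among all protein-coding genes was not computed, so 0.388% is not a like-for-like base for either family. The listed clec and lys genes also define the description, so their shares carry no further reading. In the other 5 lists, 1 gene of 120 was listed, a count too low to read against the share of all genes. None of 6 ilys genes, 30 saposin-like spp genes, 64 genes of antimicrobial peptides (abf, cnc, nlp-24 to nlp-34, fip and fipr) or 8 thaumatin genes (thn) was listed. Of 12 galectin genes, whose products bind galactose-containing sugars and are unrelated in fold to C-type lectins, lec-6 was listed. Its peak (III, 600564 to 600876) had 32 tags (21.9 to 45.2) over a background of 10.2 and a fold of 2.95, below each lectin peak although the pileup was above all 4.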

How the data were processed

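The authors clipped adaptors, mapped reads to ce10 with BWA MEM (0.7.15), removed reads with a mapping quality under 10 with SAMtools, used Picard and called peaks with MACS (2.1.1.20160309 in the file header) at a q cutoff of 0.05, with R24 as treatment and DMSO as control. The header keeps at most 1 tag per position and gives model settings, whereas the methods describe a run without a fragment model and a p threshold. The header numbers its libraries, the labels do not.

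Per the file headers, the deposited peak list gives positions, pileup (signal, tags), fold enrichment (a ratio) and −log10 p and −log10 q, all by MACS. The deposited gene table gives a score headed fold enrichment, which for most genes is a peak's fold or its −log10 q, times a constant. It was used only to join genes to peaks on the same chromosome and in gene order. A match took equal values or, failing that, equal decimals of the −log10 q alone (tolerance 6e-06). The score matched a full −log10 q for 125 genes, a full fold for 17, only the decimals for 24 and nothing for 23. Of 189 genes, 182 were found in RefSeq and 146 were joined; 3 out of order were left out. The table's own p and q columns were not used.

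Background was recovered as (pileup + 1)/fold − 1; with it the deposited −log10 p came out again within 0.000322 at every peak. Intervals are exact at 95% (scipy 1.17.1, Python 3.11.15). Recovery and join were tried on simulated data, whose backgrounds were whole tag counts by construction. No match by decimals alone was simulated, so that part of the join was not tested. No test across samples was made, with 1 library per group. Named genes were the members, the 3 genes next to them, listed genes of 7 gene lists and the 3 nearest joined peaks. Members and lists were chosen with earlier results of these data known, and reading the background in DMSO tags was worked out on the data. Planned motif and protein comparisons were not run.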

Additional observations from a re-analysis of the deposited data

How the results depend on the processing

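For 14 results 44 alternatives were computed, of which 35 stayed within the counting interval or within 1.5 times a count, 9 did not and none changed direction. With pileups above every background used, no fold at the lectin peaks could have turned below 1. Inner minus outer was taken in folds, tags, −log10 q and bp, which are unlike units. The tally is therefore a description and no measure of robustness. A rank was held to the wide range of ranks that the ends of the fold's interval would take, not to 1.5 times. With a pseudocount of 5 the folds fell to 4.04 at clec-174, 3.29 and 3.21 at the inner peaks and 2.72 at clec-72, since a larger pseudocount weighs more where the background is low. Ranked by pileup in place of fold, clec-174 moved from 7 to 81, the inner peaks from 15 and 16 to 162 and 173 and clec-72 from 38 to 207, the last within that range. By −log10 q the 4 moved to 13, 46, 52 and 128, each within its range though all but the first by over 2 times. With length in place of fold, inner minus outer was -245 bp. Merging peaks under 1 kb apart left 3, and under 5 kb 1, so the number of separate lectin peaks depends on the distance allowed. Stricter q cutoffs of 0.01 and 0.001 kept all 4, which was fixed beforehand by the lowest lectin −log10 q of 4.86. The alternative with DMSO tags at the summit at their highest possible number was chosen after seeing the data. No replicate could be left out, and no paired analysis was possible because each group had 1 library. At pileups of 14 to 26 tags, none of the 6 differences between lectin peaks was detectable at this depth. The largest ratio, clec-174 over clec-72, had an interval of 0.935 to 3.85.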

Other observations

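Across the whole list, 108 of 220 peaks (49.1%) took their background from the 296 bp window, 90 (40.9%) from 1 kb and 22 (10%) from 10 kb. Their median folds were 3.67, 4.07 and 4.40 and their median backgrounds 5.80, 4.71 and 2.85 tags. None of the lectin peaks was in the first class, 3 were in the second and the clec-72 peak in the third. Backgrounds below the floor of the worm genome size occurred at 23 of the 220 peaks (10.5%), among them the 4 lectin peaks. Of all peaks, 74 (33.6%) were joined to no gene of the table, as were the 2 inner lectin peaks.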
